A study of Homo sapiens with 12 samples.

Results

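Glycolysis breaks glucose down to pyruvate, and many of its genes are also switched on when oxygen is scarce. The genes described here are 41 named members of that pathway and of the hypoxia response, given as a list of symbols. They fall into 23 glycolytic genes (glucose transporters, enzymes, the regulators of phosphofructokinase and the lactate and pyruvate steps) and 18 other genes of the hypoxia-inducible factors (HIF). The list was chosen with earlier results of these data known. A share of its genes set beside that of all features below is therefore a description and not a test of the pathway. A gene was measured where the array held a feature annotated with its symbol alone, which was the case for 38 of the 41, namely 21 glycolytic and 17 other HIF genes, out of 18417 such genes in the whole data set. *SLC16A1*, *SLC16A3* and *CA9* had no such feature in the annotation used and are not analysed here, which does not mean that no probe of the array reads them. Where a gene had several features, the one with the highest mean over the 12 arrays stands for it.

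The cells were Calu-6, an established human lung cancer line, and they received either siRNA against *LAPTM4B* (siLAPTM4B) or scrambled siRNA (siControl). On the next day the cells either lost serum (0% FBS) or stayed in medium with 10% FBS, and RNA was isolated at 72 h from transfection, which is 48 h in the assigned medium. The 4 groups were thus siLAPTM4B 0% FBS, siControl 0% FBS, siLAPTM4B 10% FBS and siControl 10% FBS, each with 3 biological replicates and 1 Affymetrix Human Gene 1.0 ST array per replicate. All groups are thus 1 cell line, the labels name no low-oxygen treatment in any of them, and siRNA lowers *LAPTM4B* without removing it. A level is the deposited log2 signal of a feature and a change is a difference of such levels, siLAPTM4B minus siControl or 0% FBS minus 10% FBS. A gene was called at an adjusted p under 0.05 over 19460 features with 1 symbol, and p measures the spread between these replicates, whose origin in separate cultures is not described further.

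HIF is a pair of an unstable alpha subunit (HIF-1 alpha from *HIF1A*, HIF-2 alpha from *EPAS1*) and a stable beta subunit. With enough oxygen, prolyl hydroxylases of the EGLN family mark the alpha subunit for destruction. Without it, HIF binds short elements around the letters ACGTG and raises glucose transporters, glycolytic enzymes, angiogenic factors and its own inhibitors. Tumour cells often run this programme in the presence of oxygen, and growth factors in serum are known to act on it too.

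*LAPTM4B*, which encodes a membrane protein of late endosomes and lysosomes, was lowered in every siLAPTM4B array. It read 10.45, 10.50 and 10.54 after siLAPTM4B without serum, against 11.94, 11.87 and 11.93 after siControl, a change of -1.42 (SE 0.046, adjusted p = 8.62e-06). With 10% FBS it read 10.01, 10.04 and 9.99 after siLAPTM4B, against 11.76, 11.75 and 11.79 after siControl, a change of -1.75 (SE 0.044, adjusted p = 6.43e-07). The deposited values lay between 3.37 and 14.8, arrays of a group correlated at 0.9967 to 0.9982 over features, and no pair of arrays was identical. Of 6 epithelial markers, 5 lay above the array median on all 12 arrays and *CDH1* below it, while 4 of 4 measured leukocyte and 6 of 6 endothelial markers lay below it. Without serum the epithelial markers moved unequally, with *KRT7* at -1.90 in siLAPTM4B cells and -1.64 in siControl cells and *EPCAM* at 0.79 and 1.09. Of 6 fibroblast markers 1 lay above and 2 below the median on all arrays, and their summed log2 level moved with serum and with the siRNA. It was 42.75 to 43.19 in siLAPTM4B 0% FBS, 43.7 to 43.95 in siControl 0% FBS, 45.95 to 46.41 in siLAPTM4B 10% FBS and 46.78 to 47.19 in siControl 10% FBS, with *LUM* and *PDGFRB* called lower in all 4 comparisons. Its part in the results below was not tested. RNA came from whole cultures, so fewer cells that express a gene and less of its RNA per cell cannot be told apart.

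The promoters were searched for the letters ACGTG on both strands (CACGT on the strand printed), with overlapping matches counted once. Any other form of the HIF element was not searched, so a promoter without a match is not shown to lack one. RefSeq promoters of build GRCh38.p14, 300 bases with 250 before and 50 after the transcription start, were at hand for 32 of the 38 measured genes. The letters occurred in 12 of these 32 (37.5%), against 5900 of 27305 promoters of the same length (21.6%). The stretches of 3 genes are shown upstream of the start, *HK2* and *ENO2* because their signal was higher without serum and *LDHA* because it holds the most matches and its signal was not called in any comparison. Capitals mark the matches, and each runs 5′ to 3′ on the plus strand.
HK2, chr2:74833877-74834126: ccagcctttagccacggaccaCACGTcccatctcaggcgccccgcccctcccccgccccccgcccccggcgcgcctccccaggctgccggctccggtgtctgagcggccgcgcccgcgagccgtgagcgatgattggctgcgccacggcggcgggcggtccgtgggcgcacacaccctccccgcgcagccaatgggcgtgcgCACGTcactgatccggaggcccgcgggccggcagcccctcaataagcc
ENO2, chr12:6914330-6914579: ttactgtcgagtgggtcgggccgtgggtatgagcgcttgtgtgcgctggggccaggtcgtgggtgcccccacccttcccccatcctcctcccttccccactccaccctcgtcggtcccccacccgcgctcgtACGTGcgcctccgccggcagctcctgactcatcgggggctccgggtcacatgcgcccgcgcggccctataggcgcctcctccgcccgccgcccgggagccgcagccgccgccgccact
LDHA, chr11:18394313-18394562: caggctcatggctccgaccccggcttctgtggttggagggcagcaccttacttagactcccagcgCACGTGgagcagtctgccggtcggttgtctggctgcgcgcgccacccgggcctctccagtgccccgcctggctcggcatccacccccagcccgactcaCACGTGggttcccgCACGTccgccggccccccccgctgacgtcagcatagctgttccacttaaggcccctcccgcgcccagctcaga
A match is a description of the letters and not a binding site. Among the genes higher without serum after both siRNAs, 3 of 7 with a promoter held a match (42.9%), namely *HK2*, *ENO2* and *DDIT4*, and among the remaining genes 9 of 25 did (36.0%). *SLC2A3*, *PFKFB2*, *STC1*, *VEGFA*, *BNIP3L* and *NDRG1* were not searched.

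Serum withdrawal moved a large share of these genes after either siRNA, with *NDRG1*, *STC1* and *VEGFA* highest. In siLAPTM4B cells 18 of 38 were called, 13 higher and 5 lower without serum, where 20.7% of all features were called, 9.74% higher and 11.0% lower. In siControl cells 19 of 38 were called, 12 higher and 7 lower, where 26.0% of all features were called, 13.2% higher and 12.9% lower. The siLAPTM4B and siControl comparisons share no array. Of the 38 genes, 11 were higher in both, where 7.85% of all features were. They make 84.6% of the genes higher in siLAPTM4B cells and 91.7% of those higher in siControl cells, and over all features the same shares were 80.6% and 59.6%. They are *SLC2A1*, *SLC2A3*, *HK2*, *ENO2*, *PDK1*, *KDM3A*, *STC1*, *VEGFA*, *NDRG1*, *DDIT4* and *MXI1*. Lower in both were 4 genes, *PFKFB2*, *EPAS1*, *CA12* and *ADM*, where 7.63% of all features were. They make 80% of the genes lower in siLAPTM4B cells and 57.1% of those lower in siControl cells, and over all features 69.6% and 59.3%. Of the glycolytic genes 9 of 21 (42.9%) were called in siLAPTM4B cells and 8 of 21 (38.1%) in siControl cells, and of the other HIF genes 9 of 17 (52.9%) and 11 of 17 (64.7%). The median change of the glycolytic genes was 0.042 in siLAPTM4B cells and 0.012 in siControl cells, and that of the other HIF genes 0.094 and 0.086, beside -0.0058 and -0.015 over all features.

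**Figure D1:**
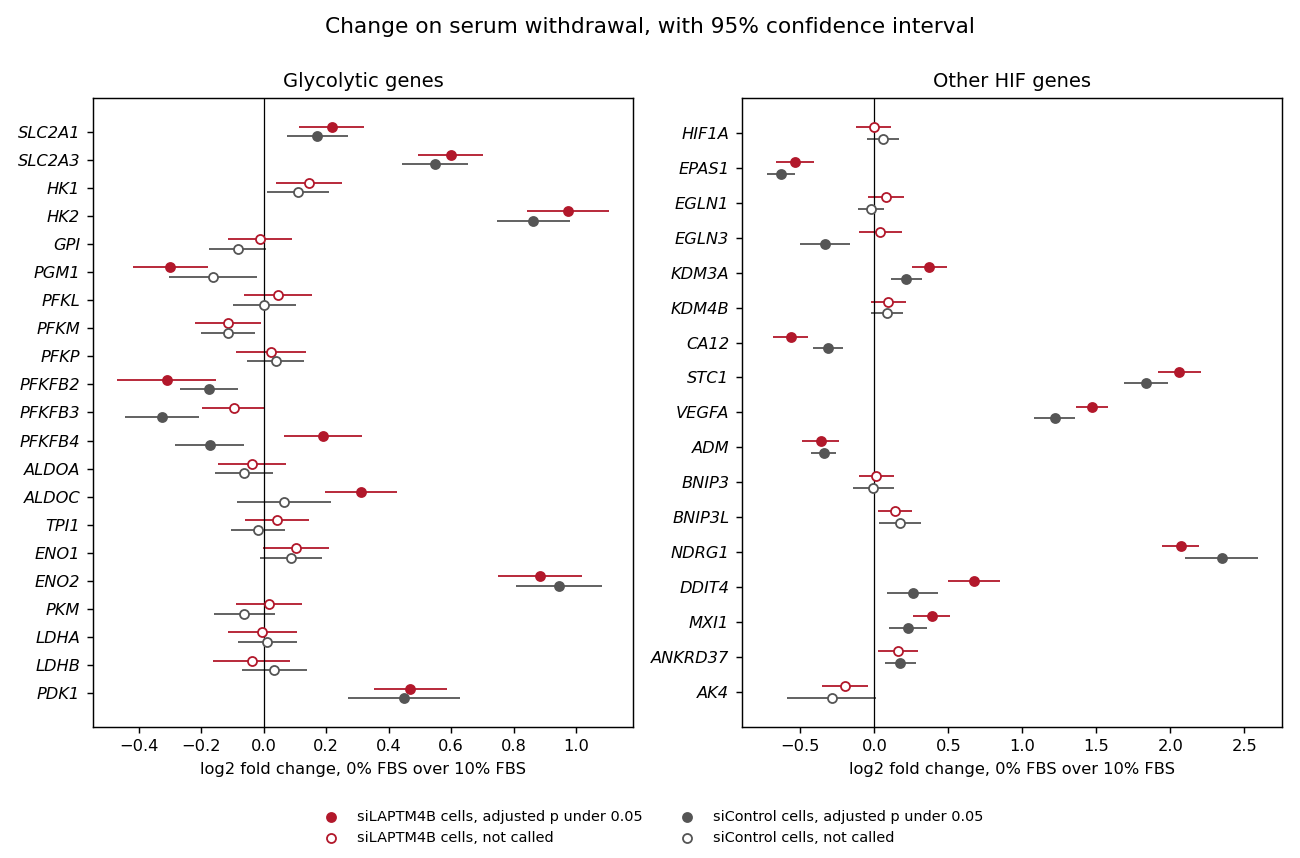
Change of the 38 genes on serum withdrawal, as log2 of 0% FBS over 10% FBS with its 95% confidence interval (3 arrays against 3), for siLAPTM4B cells (red, upper mark) and siControl cells (grey, lower mark), filled where the gene was called, the panels being on different scales. *NDRG1*, *STC1* and *VEGFA* lie farthest to the right, *PFKFB4* lies on opposite sides of 0 after the 2 siRNAs, and the intervals of *ALDOA*, *TPI1*, *PKM*, *LDHA* and *LDHB* include 0.

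Both glucose transporters were higher without serum. *SLC2A3*, the high-affinity transporter GLUT3, read 11.07, 11.09 and 11.07 in siLAPTM4B cells without serum, against 10.47, 10.51 and 10.46 with 10% FBS. In siControl cells *SLC2A3* read 10.90, 10.79 and 10.88 without serum, against 10.29, 10.28 and 10.35 with it. No array of one medium reached those of the other, and *SLC2A3* rose by 0.60 (SE 0.046, adjusted p = 1.82e-05) in siLAPTM4B cells and 0.55 (SE 0.045, adjusted p = 6.57e-05) in siControl cells. *SLC2A1*, the widespread transporter GLUT1, read 12.64, 12.63 and 12.65 in siLAPTM4B cells without serum, against 12.43, 12.43 and 12.41 with 10% FBS. In siControl cells *SLC2A1* read 12.63, 12.52 and 12.58, against 12.41, 12.40 and 12.40. These groups did not overlap either, but the change was smaller, 0.22 (SE 0.046, adjusted p = 0.00828) in siLAPTM4B cells and 0.17 (SE 0.042, adjusted p = 0.019) in siControl cells. The siControl call for *SLC2A1* was lost without siControl 0% FBS replicate 1 or 3 or without siControl 10% FBS replicate 2 or 3 (adjusted p = 0.0504 to 0.0678).

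Hexokinases trap glucose as glucose 6-phosphate, and only 1 of the 2 measured was called. *HK2*, the inducible form known from tumours, read 9.84, 9.74 and 9.83 in siLAPTM4B cells without serum, against 8.74, 8.88 and 8.88 with 10% FBS. In siControl cells *HK2* read 9.64, 9.53 and 9.69 without serum, against 8.80, 8.76 and 8.72 with it. All arrays without serum lay above all arrays with serum, and *HK2* rose by 0.97 (SE 0.058, adjusted p = 3.63e-06) in siLAPTM4B cells, which is 1.96-fold, and by 0.86 (SE 0.051, adjusted p = 9.92e-06) in siControl cells, which is 1.82-fold. The housekeeping form *HK1* was 0.14 (95% interval 0.04 to 0.25, adjusted p = 0.0563) in siLAPTM4B cells and 0.11 (95% interval 0.011 to 0.21, adjusted p = 0.101) in siControl cells, so not called. *PGM1* links glucose 6-phosphate with the glycogen branch. It read 9.96, 9.83 and 9.95 in siLAPTM4B cells without serum, against 10.22, 10.22 and 10.20 with 10% FBS, and fell by 0.30 (SE 0.053, adjusted p = 0.00334). In siControl cells *PGM1* read 10.19, 10.00 and 10.14, against 10.28, 10.21 and 10.34, a change of -0.16 (95% interval -0.30 to -0.022, adjusted p = 0.0892). With the replicate number as a block, *PGM1* was called there too (adjusted p = 0.032). The isomerase *GPI* was not called.

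None of the 3 phosphofructokinases, which catalyse the committed step, was called. *PFKP*, the platelet form, read 11.75, 11.83 and 11.84 in siLAPTM4B cells without serum, against 11.77, 11.81 and 11.76 with 10% FBS. In siControl cells *PFKP* read 11.91, 11.96 and 11.90, against 11.87, 11.90 and 11.88. The arrays of the media overlapped in siLAPTM4B cells and not in siControl cells. Its change was 0.025 (95% interval -0.087 to 0.14, adjusted p = 0.805) in siLAPTM4B cells and 0.038 (95% interval -0.052 to 0.13, adjusted p = 0.544) in siControl cells. The muscle form *PFKM* was -0.11 (95% interval -0.22 to -0.0078, adjusted p = 0.131) in siLAPTM4B cells and -0.11 (95% interval -0.20 to -0.027, adjusted p = 0.0593) in siControl cells, without overlap in either. In siControl cells *PFKM* was called lower with a prior variance that follows intensity, and in a fit of all 12 arrays, but not with the replicate block. The liver form *PFKL* was 0.046 and 0.0025 in siLAPTM4B and siControl cells.

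The 3 bifunctional enzymes that set fructose 2,6-bisphosphate, the activator of phosphofructokinase, all fell in siControl cells, while in siLAPTM4B cells 1 fell, 1 rose and 1 was not called. *PFKFB3*, the form with the strongest kinase activity, read 10.38, 10.36 and 10.37 in siLAPTM4B cells without serum, against 10.46, 10.47 and 10.48 with 10% FBS, a change of -0.10 (95% interval -0.20 to 0.0059, adjusted p = 0.186). In siControl cells *PFKFB3* read 10.30, 10.17 and 10.32 without serum, against 10.61, 10.61 and 10.54 with it, and fell by 0.32 (SE 0.052, adjusted p = 0.00237). The arrays of the media did not overlap after either siRNA. *PFKFB2*, known as the heart form, read 7.64, 7.76 and 7.90 in siLAPTM4B cells without serum, against 8.02, 8.12 and 8.09 with 10% FBS. In siControl cells *PFKFB2* read 7.98, 8.03 and 7.97, against 8.15, 8.16 and 8.19. It fell after both siRNAs, by 0.31 (SE 0.07, adjusted p = 0.0118) in siLAPTM4B cells and by 0.17 (SE 0.04, adjusted p = 0.0134) in siControl cells, the siControl call being lost without siControl 0% FBS replicate 3 (adjusted p = 0.0528). *PFKFB4*, another hypoxia-induced form, was the only gene called in opposite directions. It read 8.51, 8.52 and 8.65 in siLAPTM4B cells without serum, against 8.33, 8.38 and 8.40 with 10% FBS, and rose by 0.19 (SE 0.056, adjusted p = 0.0389). In siControl cells *PFKFB4* read 8.48, 8.37 and 8.47 without serum, against 8.62, 8.66 and 8.57 with it, and fell by 0.17 (SE 0.048, adjusted p = 0.0318). All 3 arrays without serum lay above those with serum after siLAPTM4B and below them after siControl. Both calls were fragile. The first was lost without any of the 6 siLAPTM4B arrays except siLAPTM4B 0% FBS replicate 1 (adjusted p = 0.072 to 0.143), and the other without siControl 0% FBS replicate 2 or 3 or siControl 10% FBS replicate 1 or 2 (adjusted p = 0.0581 to 0.118).

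From aldolase to pyruvate, the isoforms best known from nervous tissue were called and the widespread ones were not. *ENO2*, the neuronal enolase, read 10.19, 10.25 and 10.21 in siLAPTM4B cells without serum, against 9.37, 9.41 and 9.22 with 10% FBS. In siControl cells *ENO2* read 10.19, 9.97 and 10.04 without serum, against 9.11, 9.10 and 9.16 with it. Every array without serum lay above every array with serum, and *ENO2* rose by 0.88 (SE 0.06, adjusted p = 8.05e-06) in siLAPTM4B cells and by 0.95 (SE 0.06, adjusted p = 1.46e-05) in siControl cells. The widespread enolase *ENO1* was 0.10 (95% interval -0.0013 to 0.21, adjusted p = 0.166) in siLAPTM4B cells and 0.087 (95% interval -0.012 to 0.19, adjusted p = 0.19) in siControl cells. *ALDOC*, the brain aldolase, read 11.61, 11.52 and 11.59 in siLAPTM4B cells without serum, against 11.26, 11.31 and 11.22 with 10% FBS, and rose by 0.31 (SE 0.051, adjusted p = 0.00223). In siControl cells *ALDOC* read 11.55, 11.29 and 11.44 without serum, against 11.37, 11.39 and 11.33 with it. These overlapped, since siControl 0% FBS replicate 2 lay below all siControl arrays with serum, and the change was 0.065 (95% interval -0.085 to 0.22, adjusted p = 0.538). *ALDOA* and *TPI1*, which act beside it, were not called.

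*PKM* makes pyruvate and *LDHA* turns it into lactate, and both are textbook HIF targets. *PKM* read 12.62, 12.61 and 12.60 in siLAPTM4B cells without serum, against 12.59, 12.56 and 12.62 with 10% FBS. In siControl cells *PKM* read 12.62, 12.53 and 12.62, against 12.66, 12.65 and 12.63. Its change was 0.018 (95% interval -0.087 to 0.12, adjusted p = 0.86) in siLAPTM4B cells and -0.061 (95% interval -0.16 to 0.036, adjusted p = 0.35) in siControl cells. The media overlapped for *PKM* in siLAPTM4B cells, while in siControl cells all arrays without serum lay below those with it. *LDHA* read 13.61, 13.58 and 13.64 in siLAPTM4B cells without serum, against 13.57, 13.65 and 13.62 with 10% FBS. In siControl cells *LDHA* read 13.62, 13.54 and 13.59, against 13.55, 13.58 and 13.59. The media overlapped after both siRNAs, with changes of -0.0044 (95% interval -0.11 to 0.11, adjusted p = 0.97) in siLAPTM4B cells and 0.012 (95% interval -0.083 to 0.11, adjusted p = 0.875) in siControl cells. *PDK1*, a kinase that closes the pyruvate dehydrogenase gate into mitochondria, read 10.54, 10.45 and 10.56 in siLAPTM4B cells without serum, against 10.03, 10.04 and 10.08 with 10% FBS. In siControl cells *PDK1* read 10.61, 10.31 and 10.51, against 9.96, 10.02 and 10.11. There was no overlap, and *PDK1* rose by 0.47 (SE 0.052, adjusted p = 0.000188) in siLAPTM4B cells and by 0.45 (SE 0.078, adjusted p = 0.00362) in siControl cells.

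Of the HIF alpha subunits, *EPAS1* fell without serum and *HIF1A* was not called. *EPAS1* read 8.54, 8.53 and 8.69 in siLAPTM4B cells without serum, against 9.11, 9.14 and 9.11 with 10% FBS. In siControl cells *EPAS1* read 8.69, 8.65 and 8.75 without serum, against 9.32, 9.35 and 9.32 with it. Each array without serum was below each array with serum, and *EPAS1* fell by 0.53 (SE 0.057, adjusted p = 0.000147) in siLAPTM4B cells and by 0.63 (SE 0.042, adjusted p = 2.01e-05) in siControl cells. *HIF1A*, which is controlled mainly at the protein level, read 12.11, 12.19 and 12.18 in siLAPTM4B cells without serum, against 12.10, 12.19 and 12.21 with 10% FBS. In siControl cells *HIF1A* read 12.21, 12.32 and 12.31, against 12.18, 12.21 and 12.26. The arrays overlapped, with changes of -0.0033 (95% interval -0.12 to 0.12, adjusted p = 0.978) in siLAPTM4B cells and 0.059 (95% interval -0.05 to 0.17, adjusted p = 0.429) in siControl cells. RNA levels say nothing here of the HIF proteins, which were not measured on the arrays.

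Among the oxygen sensors and the demethylases that need oxygen, *EGLN3* and *KDM3A* were called. *EGLN3*, a prolyl hydroxylase that HIF itself induces, read 8.31, 8.38 and 8.51 in siLAPTM4B cells without serum, against 8.28, 8.39 and 8.40 with 10% FBS, a change of 0.041 (95% interval -0.10 to 0.19, adjusted p = 0.743) with overlapping arrays. In siControl cells *EGLN3* read 8.58, 8.36 and 8.56 without serum, against 8.76, 8.77 and 8.95 with it, and fell by 0.33 (SE 0.074, adjusted p = 0.012). *KDM3A*, a histone H3 lysine demethylase, read 10.10, 10.08 and 10.21 in siLAPTM4B cells without serum, against 9.73, 9.75 and 9.79 with 10% FBS. In siControl cells *KDM3A* read 10.06, 9.98 and 10.10, against 9.81, 9.83 and 9.85. It rose without overlap, by 0.37 (SE 0.053, adjusted p = 0.000955) in siLAPTM4B cells and by 0.22 (SE 0.045, adjusted p = 0.00878) in siControl cells. The main sensor *EGLN1* was 0.077 (95% interval -0.046 to 0.20, adjusted p = 0.401) and -0.022 (95% interval -0.11 to 0.064, adjusted p = 0.729), and *KDM4B* 0.094 and 0.086, in siLAPTM4B and siControl cells, and neither was called.

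The secreted and surface products split into large rises and smaller falls. *STC1*, the hormone stanniocalcin that acts on calcium and phosphate, read 9.59, 9.50 and 9.66 in siLAPTM4B cells without serum, against 7.54, 7.60 and 7.43 with 10% FBS. In siControl cells *STC1* read 9.15, 9.17 and 9.39 without serum, against 7.38, 7.41 and 7.42 with it. The gap was far wider than the spread within a group, 2.06 (SE 0.064, adjusted p = 7.63e-08) or 4.17-fold in siLAPTM4B cells and 1.84 (SE 0.066, adjusted p = 7.79e-07) or 3.57-fold in siControl cells. *VEGFA*, the main angiogenic growth factor, read 9.59, 9.54 and 9.57 in siLAPTM4B cells without serum, against 8.14, 8.09 and 8.06 with 10% FBS. In siControl cells *VEGFA* read 9.70, 9.63 and 9.65, against 8.53, 8.32 and 8.47. It rose by 1.47 (SE 0.048, adjusted p = 9.94e-08) in siLAPTM4B cells, 2.77-fold, and by 1.22 (SE 0.059, adjusted p = 3.55e-06) in siControl cells, 2.33-fold.

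*ADM* and *CA12* went the other way. *ADM* encodes the vasodilator peptide adrenomedullin, and it read 10.65, 10.72 and 10.79 in siLAPTM4B cells without serum, against 11.06, 11.05 and 11.14 with 10% FBS. In siControl cells *ADM* read 10.97, 10.98 and 10.95, against 11.33, 11.30 and 11.30. All arrays without serum were the lower ones, and *ADM* fell by 0.36 (SE 0.056, adjusted p = 0.00144) in siLAPTM4B cells and by 0.34 (SE 0.038, adjusted p = 0.00031) in siControl cells. *CA12*, a membrane carbonic anhydrase that handles the acid made by glycolysis, read 8.93, 8.91 and 9.03 in siLAPTM4B cells without serum, against 9.52, 9.53 and 9.52 with 10% FBS. In siControl cells *CA12* read 8.97, 9.02 and 9.09, against 9.34, 9.37 and 9.31. It fell with no overlap, by 0.57 (SE 0.052, adjusted p = 5.28e-05) in siLAPTM4B cells and by 0.31 (SE 0.045, adjusted p = 0.00143) in siControl cells.

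The largest rise of the 38 genes was that of *NDRG1*, a stress gene and metastasis suppressor that hypoxia strongly induces. It read 11.65, 11.55 and 11.56 in siLAPTM4B cells without serum, against 9.59, 9.48 and 9.48 with 10% FBS. In siControl cells *NDRG1* read 11.27, 10.83 and 11.17 without serum, against 8.73, 8.66 and 8.85 with it. The rise was 2.07 (SE 0.055, adjusted p = 4.13e-08) in siLAPTM4B cells, 4.2-fold, and 2.35 (SE 0.11, adjusted p = 2.67e-06) in siControl cells, 5.08-fold. *DDIT4*, the inhibitor of mTORC1 known as REDD1, read 7.93, 7.76 and 8.04 in siLAPTM4B cells without serum, against 7.24, 7.34 and 7.13 with 10% FBS, and rose by 0.67 (SE 0.079, adjusted p = 0.00028). In siControl cells *DDIT4* read 7.93, 7.69 and 7.94, against 7.63, 7.50 and 7.64, and rose by 0.26 (SE 0.075, adjusted p = 0.0371), a call lost without any of the 6 siControl arrays except siControl 0% FBS replicate 2 (adjusted p = 0.0572 to 0.125). No array without serum reached down to one with serum after either siRNA.

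*MXI1*, a MAX partner that opposes MYC, read 8.89, 8.80 and 8.77 in siLAPTM4B cells without serum, against 8.49, 8.36 and 8.45 with 10% FBS. In siControl cells *MXI1* read 8.79, 8.72 and 8.88, against 8.48, 8.62 and 8.61. It rose by 0.39 (SE 0.057, adjusted p = 0.00107) in siLAPTM4B cells and by 0.23 (SE 0.057, adjusted p = 0.0202) in siControl cells, where the call was lost without siControl 0% FBS replicate 3 or siControl 10% FBS replicate 1 (adjusted p = 0.0692 and 0.0542). *ANKRD37*, a little-studied HIF target, read 8.21, 8.17 and 8.33 in siLAPTM4B cells without serum, against 8.02, 8.14 and 8.07 with 10% FBS, a change of 0.16 (95% interval 0.024 to 0.29, adjusted p = 0.0989). In siControl cells *ANKRD37* read 8.14, 8.15 and 8.24, against 8.03, 7.98 and 7.99, and rose by 0.18 (SE 0.044, adjusted p = 0.0207), a call lost without siControl 0% FBS replicate 3 or siControl 10% FBS replicate 2 or 3 (adjusted p = 0.0588 to 0.0807). The media did not overlap for either gene after either siRNA. The mitophagy receptors were not called, *BNIP3L* being 0.14 (95% interval 0.024 to 0.25, adjusted p = 0.089) in siLAPTM4B cells and 0.17 (95% interval 0.031 to 0.31, adjusted p = 0.077) in siControl cells, where it was called with the replicate block (adjusted p = 0.0233). *BNIP3*, with a mean level of 6.31 close to the lower quartiles of the arrays (6.145 to 6.195), was 0.013 and -0.0067 there.

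**Figure D2:**
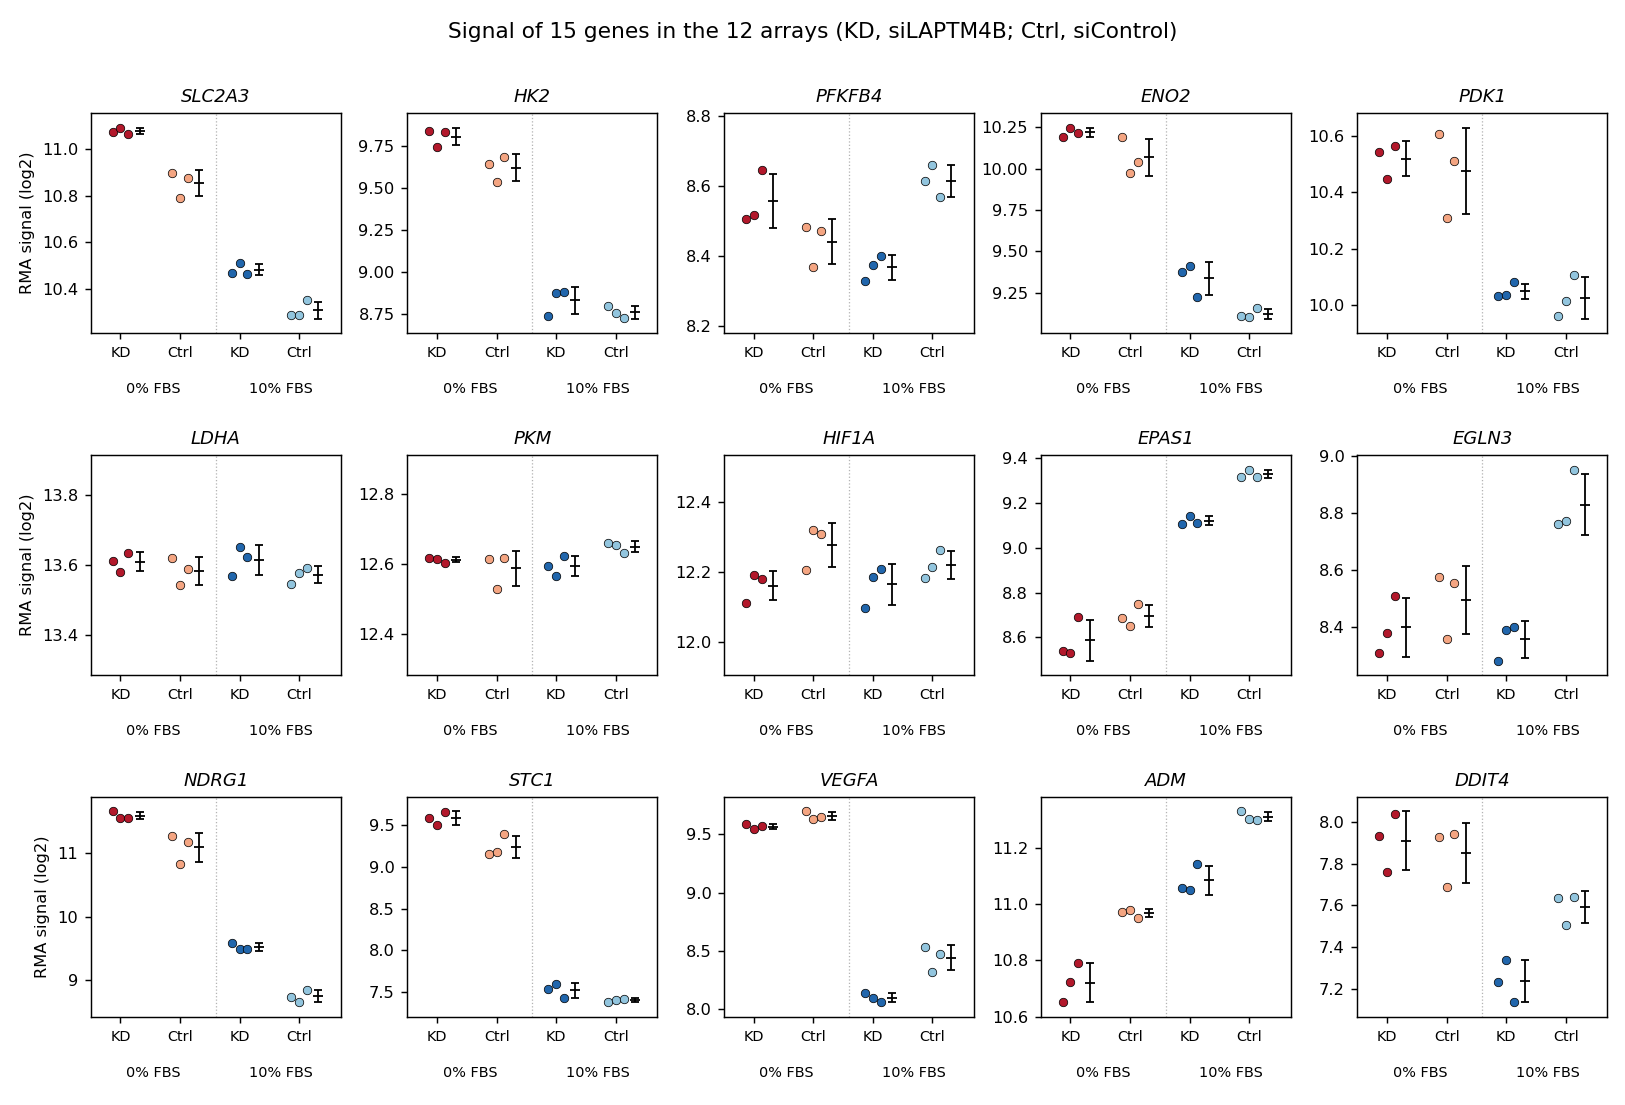
Log2 RMA signal of 15 of the genes in the 12 arrays, 1 point per array with the mean ± SD of the group beside it (n = 3), as siLAPTM4B (KD) and siControl (Ctrl) in 0% FBS and then in 10% FBS, each panel on its own scale. *NDRG1*, *STC1* and *VEGFA* separate by medium after both siRNAs, *EGLN3* and *DDIT4* show a siRNA gap with 10% FBS, and *LDHA* and *PKM* move little and were not called.

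Over 5 comparisons, the serum comparisons and the knockdown comparisons described next with the difference between media, 21 of the 38 measured genes were called at least once and 17 never, where 32.4% of all features were called at least once. The 17 are *HK1*, *GPI*, *PFKL*, *PFKM*, *PFKP*, *ALDOA*, *TPI1*, *ENO1*, *PKM*, *LDHA*, *LDHB*, *HIF1A*, *EGLN1*, *KDM4B*, *BNIP3*, *BNIP3L* and the adenylate kinase *AK4*. Their changes on serum withdrawal ran between -0.20 (*AK4*) and 0.14 (*HK1*) in siLAPTM4B cells and between -0.29 (*AK4*) and 0.17 (*BNIP3L*) in siControl cells. On knockdown they ran between -0.12 (*HIF1A*) and 0.15 (*BNIP3L*) without serum and between -0.11 (*BNIP3*) and 0.18 (*BNIP3L*) with 10% FBS. The 95% intervals of the 17 reached -0.35 and 0.25 in siLAPTM4B cells, -0.59 and 0.31 in siControl cells, -0.27 and 0.34 for knockdown without serum, and -0.24 and 0.29 for knockdown with 10% FBS.

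Knockdown of *LAPTM4B* without serum moved few of these genes. Called were 3 of 38, 2 higher and 1 lower, where 2.33% of all features were called, 0.591% higher and 1.74% lower. They were 1 of 21 glycolytic genes and 2 of 17 other HIF genes, and the median change was 0.025 and 0.026, beside 0.0068 over all features. *SLC2A3* read 11.07, 11.09 and 11.07 after siLAPTM4B without serum, against 10.90, 10.79 and 10.88 after siControl, and rose by 0.22 (SE 0.045, adjusted p = 0.0448). *NDRG1* read 11.65, 11.55 and 11.56 after siLAPTM4B, against 11.27, 10.83 and 11.17 after siControl, and rose by 0.50 (SE 0.1, adjusted p = 0.0452). *ADM* read 10.65, 10.72 and 10.79 after siLAPTM4B, against 10.97, 10.98 and 10.95 after siControl, and fell by 0.25 (SE 0.049, adjusted p = 0.0402). The groups did not overlap for any of the 3. *STC1* missed the threshold with 9.59, 9.50 and 9.66 after siLAPTM4B, against 9.15, 9.17 and 9.39 after siControl, a change of 0.35 (95% interval 0.18 to 0.51, adjusted p = 0.0507). *SLC2A3* lost its call without any 1 of the 6 arrays (adjusted p = 0.0797 to 0.178), *ADM* without any but siLAPTM4B 0% FBS replicate 3 (0.0938 to 0.156), and *NDRG1* without siControl 0% FBS replicate 3 or any siLAPTM4B array (0.0924 to 0.138).

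With 10% FBS, knockdown raised *NDRG1* and lowered *EGLN3* and 5 further genes by less. Called were thus 7 of 38, 1 higher and 6 lower, where 4.08% of all features were called, 1.99% higher and 2.09% lower. These were 1 of 21 glycolytic genes and 6 of 17 other HIF genes (35.3%), with median changes of -0.042 and -0.058, beside 0.0043 over all features. The split by direction rested on the setting, with 5 higher and 6 lower when the prior variance followed intensity and 5 higher and 5 lower with dim features left out. *SLC2A3*, *ENO2*, *CA12* and *BNIP3L* were added as higher in both. *DDIT4* was itself left out as dim, so it was not tested in the latter setting. *NDRG1* read 9.59, 9.48 and 9.48 after siLAPTM4B with 10% FBS, against 8.73, 8.66 and 8.85 after siControl. It rose by 0.77 (SE 0.061, adjusted p = 0.000603), 1.71-fold, and was called without each array in turn. It was the only gene called higher in both media, where 0.319% of all features were, and these comparisons share no array. *EGLN3* read 8.28, 8.39 and 8.40 after siLAPTM4B, against 8.76, 8.77 and 8.95 after siControl, and fell by 0.47 (SE 0.064, adjusted p = 0.00658), a call that also stood without each array and was lost by the methods' t-test after Benjamini-Hochberg adjustment (adjusted p = 0.091).

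The other genes that fell with 10% FBS fell by less. *DDIT4* read 7.24, 7.34 and 7.13 after siLAPTM4B, against 7.63, 7.50 and 7.64 after siControl, and fell by 0.36 (SE 0.065, adjusted p = 0.0214). *VEGFA* read 8.14, 8.09 and 8.06 after siLAPTM4B, against 8.53, 8.32 and 8.47 after siControl, and fell by 0.34 (SE 0.062, adjusted p = 0.0203). Neither gene had overlapping arrays. *PFKFB4* read 8.33, 8.38 and 8.40 after siLAPTM4B, against 8.62, 8.66 and 8.57 after siControl, and fell by 0.25 (SE 0.047, adjusted p = 0.027). *ADM* read 11.06, 11.05 and 11.14 after siLAPTM4B, against 11.33, 11.30 and 11.30 after siControl, and fell by 0.23 (SE 0.047, adjusted p = 0.0349). It was the only gene called lower in both media, where 0.683% of all features were. *EPAS1* read 9.11, 9.14 and 9.11 after siLAPTM4B, against 9.32, 9.35 and 9.32 after siControl, and fell by 0.21 (SE 0.043, adjusted p = 0.0349). No siLAPTM4B array reached a siControl array for *PFKFB4*, *ADM* or *EPAS1*. These 3 calls were lost without any 1 of the 6 arrays (adjusted p = 0.0625 to 0.166). *DDIT4* lost its call without replicate 1 or 3 of either siRNA (0.057 to 0.0823), and *VEGFA* without siControl 10% FBS replicate 1 or 3 or siLAPTM4B 10% FBS replicate 2 or 3 (0.0517 to 0.0891). The siControl 10% FBS arrays serve here and in the serum comparison of siControl cells, so the values of *EGLN3*, *PFKFB4*, *EPAS1*, *ADM*, *VEGFA* and *DDIT4* in the 2 comparisons are not independent. The siLAPTM4B 10% FBS arrays likewise serve here and in the serum comparison of siLAPTM4B cells, so the values there are not independent of these either. Each group without serum is shared in the same way with the knockdown comparison without serum.

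**Figure D3:**
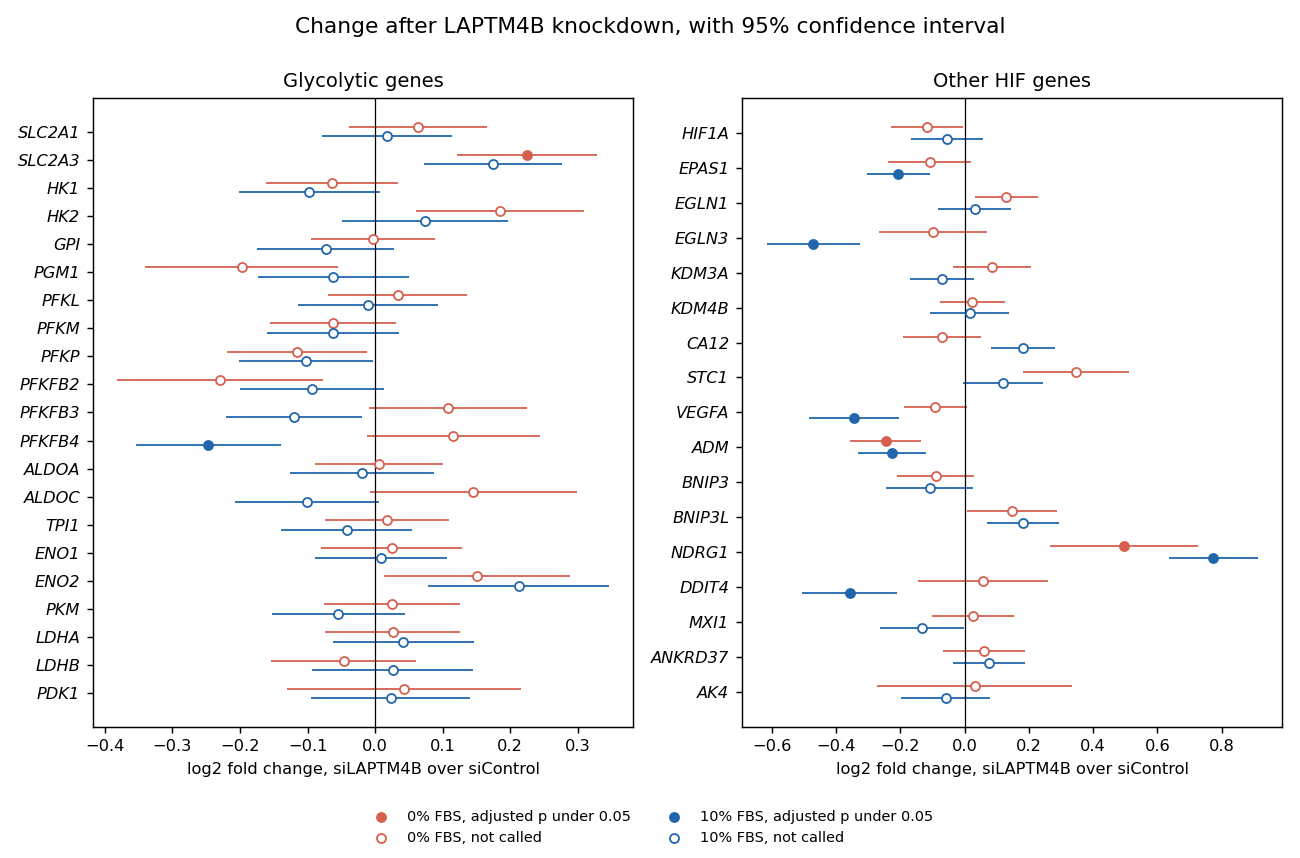
Change of the 38 genes after *LAPTM4B* knockdown, as log2 of siLAPTM4B over siControl with its 95% confidence interval (3 arrays against 3), in 0% FBS (red, upper mark) and 10% FBS (blue, lower mark), filled where the gene was called, the panels being on different scales. Most intervals of the glycolytic genes include 0, *NDRG1* lies to the right in both media, and *EGLN3*, *DDIT4* and *VEGFA* lie to the left with 10% FBS.

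In each medium 20 of the 21 glycolytic genes were not called on knockdown. *SLC16A3*, not analysed here, is on the authors' list of features up-regulated by knockdown without serum. That list was drawn at an unadjusted p under 0.01, a looser threshold than the one used here, and it also holds *SLC2A3*, *NDRG1* and *STC1*. Whether *SLC16A3* would be called here is not known. *SLC2A3* changed by 0.17 (95% interval 0.072 to 0.28, adjusted p = 0.0754) with 10% FBS, without overlap. *ENO2* changed by 0.15 (95% interval 0.013 to 0.29, adjusted p = 0.288) without serum and 0.21 (95% interval 0.079 to 0.35, adjusted p = 0.0924) with 10% FBS, without overlap in either medium. *HK2*, for which the groups without serum did not overlap, changed by 0.18 (95% interval 0.06 to 0.31, adjusted p = 0.142) without serum and by 0.073 (95% interval -0.05 to 0.20, adjusted p = 0.553) with 10% FBS. *PFKP*, lower in every siLAPTM4B array than in any siControl array of the same medium, changed by -0.12 (95% interval -0.22 to -0.012, adjusted p = 0.276) and by -0.10 (95% interval -0.20 to -0.0029, adjusted p = 0.261). *PFKFB2*, without overlap in either medium, changed by -0.23 (95% interval -0.38 to -0.077, adjusted p = 0.137) without serum and -0.094 (95% interval -0.20 to 0.014, adjusted p = 0.346) with 10% FBS. *PGM1* changed by -0.20 (95% interval -0.34 to -0.055, adjusted p = 0.171) without serum, without overlap, and -0.062 (95% interval -0.17 to 0.05, adjusted p = 0.592) with 10% FBS. *PKM* changed by 0.025 (95% interval -0.076 to 0.13, adjusted p = 0.863) without serum and -0.054 (95% interval -0.15 to 0.045, adjusted p = 0.593) with 10% FBS, where the groups did not overlap. *LDHA* changed by 0.026 (95% interval -0.074 to 0.13, adjusted p = 0.855) without serum and 0.042 (95% interval -0.062 to 0.15, adjusted p = 0.714) with 10% FBS. *HIF1A* was -0.12 (95% interval -0.23 to -0.0042, adjusted p = 0.316) without serum, where the groups did not overlap, and -0.055 (95% interval -0.17 to 0.059, adjusted p = 0.646) with 10% FBS.

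Whether knockdown acted differently in the 2 media was tested over all 12 arrays as the knockdown effect without serum minus that with 10% FBS, which is also the serum effect in siLAPTM4B cells minus that in siControl cells. None of the 38 genes was called by limma, where 0.262% of all features were. At an unadjusted p under 0.05 there were 9 of 38, 8 positive and 1 negative, where 11.0% of all features were below it, 4.47% positive and 6.49% negative. The lowest adjusted p was that of *PFKFB4*, with a difference of 0.36 (95% interval 0.21 to 0.52, adjusted p = 0.0611). *DDIT4* had a difference of 0.41 (95% interval 0.16 to 0.67, adjusted p = 0.209), *EGLN3* of 0.37 (95% interval 0.15 to 0.60, adjusted p = 0.189), *VEGFA* of 0.25 (95% interval 0.093 to 0.41, adjusted p = 0.217) and *CA12* of -0.25 (95% interval -0.39 to -0.11, adjusted p = 0.15). So the knockdown calls in 1 medium alone, such as *EGLN3*, *DDIT4* and *VEGFA* with 10% FBS, are not shown to differ between the media. *LAPTM4B* itself differed by 0.33 (SE 0.057, adjusted p = 0.0345), being lowered further with 10% FBS, a call that was lost without any 1 of the 12 arrays (adjusted p = 0.0522 to 0.103). The part of this unequal knockdown in the values above was not tested.

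Further genes of the same pathways were counted beside the 38. These lists too were chosen with earlier results of these data known, so their shares beside all features describe them and test nothing. Of 40 other glycolysis and pyruvate genes, 13 (32.5%) were called on serum withdrawal in siLAPTM4B cells, 6 higher and 7 lower, and 14 (35%) in siControl cells, 6 higher and 8 lower, beside 20.7% and 26.0% of all features. Their median changes were -0.0064 and -0.021. *PDK4*, another pyruvate dehydrogenase kinase, rose by 1.40 in siLAPTM4B cells and 1.56 in siControl cells. The transporter *SLC2A6* rose by 0.70 and 0.63, the glycogen phosphorylase *PYGB* by 0.58 and 0.53, and the pyruvate dehydrogenase phosphatase *PDP1* by 0.24 and 0.37. Lower without serum were *MPC2* of the mitochondrial pyruvate carrier (-0.47 and -0.39), *PDHX* of the pyruvate dehydrogenase complex (-0.45 and -0.42), *PDK2* (-0.27 and -0.42), the glycogen synthase *GYS1* (-0.29 and -0.35), the transporter *SLC2A8* (-0.42 and -0.28) and the monocarboxylate transporter *SLC16A7* (-0.30 and -0.18). Knockdown called 2 of the 40 (5%) in each medium, beside 2.33% of all features without serum and 4.08% with 10% FBS, so the count with 10% FBS was near that over all features. Without serum *SLC16A7* (-0.24) and *MPC2* (-0.22) fell, and with 10% FBS *SLC2A12* rose (0.38) and the glycogen phosphorylase *PYGL* fell (-0.23).

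Of 42 other hypoxia-induced genes, 21 (50%) were called on serum withdrawal in siLAPTM4B cells, 16 higher and 5 lower, and 23 (54.8%) in siControl cells, 18 higher and 5 lower, beside 20.7% and 26.0% of all features. Their medians were 0.12 and 0.080. The lipoprotein receptor *VLDLR* rose by 2.10 in siLAPTM4B cells and 2.34 in siControl cells. The trefoil peptide *TFF3* rose by 2.16 and 2.28, the lipase inhibitor *ANGPTL4* by 1.50 and 1.43, the heme oxygenase *HMOX1* by 0.76 and 1.54, and the collagen prolyl hydroxylase *P4HA1* by 0.90 and 0.70. Lower in both were the vasoconstrictor *EDN1* (-0.38 and -0.92), the repressor *BHLHE41* (-0.83 and -0.75), *GPRC5A* (-0.37 and -0.56) and the lysyl oxidase-like *LOXL2* (-0.29 and -0.36). *PPP1R3C*, a glycogen-targeting subunit, was called in siLAPTM4B cells (-0.33) and not in siControl cells (-0.23, adjusted p = 0.0509). Knockdown without serum called 6 of the 42 (14.3%, beside 2.33% of all features), with *HMOX1* (-0.96), *LOX* (-0.41), *TFF3* (-0.39) and *BHLHE40* (-0.24) lower and the transferrin receptor *TFRC* (0.28) and *GPRC5A* (0.25) higher. All 6 are also on the authors' lists for this comparison, made from the same arrays, so their number is not independent support. With 10% FBS knockdown called 4 (9.52%, beside 4.08% of all features), all lower, *ANGPTL4* (-0.37), *EDN1* (-0.33), *BHLHE40* (-0.28) and *TFF3* (-0.27). *TFRC* was the only one of the 42 called in the test between the media, with a difference of 0.31 (SE 0.051, adjusted p = 0.0274).

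**Figure D4:**
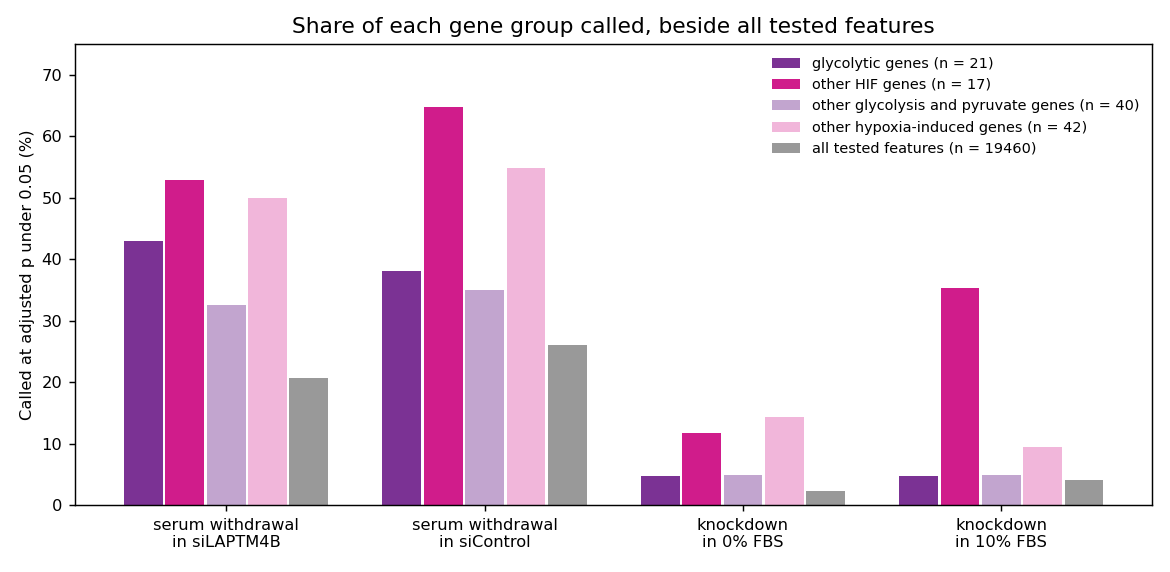
Share in percent of each gene group called in each comparison, for 21 glycolytic genes, 17 other HIF genes, 40 other glycolysis and pyruvate genes, 42 other hypoxia-induced genes and all 19460 tested features. On serum withdrawal the other HIF genes stand at 52.9% in siLAPTM4B and 64.7% in siControl cells, and on knockdown with 10% FBS at 35.3% while the glycolytic genes stand near all features. The gene groups were chosen with earlier results of these data known, so the shares are descriptive.

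Of 15 measured genes of the oxygen-sensing machinery, 5 (33.3%) were called on serum withdrawal in siLAPTM4B cells and 6 (40%) in siControl cells, beside 20.7% and 26.0% of all features. *ARNT*, the beta subunit of HIF, fell by 0.31 (SE 0.051, adjusted p = 0.00228) in siLAPTM4B cells and 0.27 (SE 0.039, adjusted p = 0.00133) in siControl cells. Its relative *ARNT2* rose by 0.49 (SE 0.054, adjusted p = 0.00017) and 0.43 (SE 0.062, adjusted p = 0.00146). *SIAH1*, a ubiquitin ligase that targets prolyl hydroxylases, rose by 0.26 and 0.37, and the scaffold *LIMD1* by 0.24 and 0.18. *CUL2* of the VHL ligase fell in siLAPTM4B cells (-0.18), and the coactivator *CREBBP* (-0.22) and *ELOB* (-0.20) fell in siControl cells. Knockdown called none of the 15 without serum, where limma gave 2 at an unadjusted p under 0.05, both lower, and 1 (6.67%, beside 4.08% of all features) with 10% FBS, *ARNT2*, which fell by 0.28 (SE 0.059, adjusted p = 0.0387).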

How the data were processed

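Signals of 12 Affymetrix Human Gene 1.0 ST arrays were deposited on the log2 scale, as the authors made them with RMA, which subtracts background, sets all arrays to common quantiles and summarises probes. The probe set level and annotation version are not given in the sources used here. Since quantiles are common, a change is relative to the other features of an array. Each comparison was fitted to its own 6 arrays with limma 3.58.1 (R 4.3.3), and the difference between media to all 12. The Benjamini-Hochberg adjustment ran over 19460 features with 1 symbol, 1754 with several symbols and 12038 with none being left out. The fit was tested on simulated data with independent noise and with changes larger than many of those reported. Smaller changes and correlated same-numbered arrays were not covered by it. The number of arrays limits the precision.

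Members and lists were chosen with earlier results of these data known. Values of each array are given for genes called at least once and for *HIF1A*, *EPAS1*, *HK2*, *PFKP*, *PKM* and *LDHA*, and of each list up to 4 called genes per direction with the largest change are named.

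Deviations from group means of same-numbered arrays correlated at 0.37, 0.13 and 0.20 between the siControl media. With arrays of another number the highest correlations were -0.19, 0.12 and 0.12. Pairing by number was thus plain for replicate 1 and slight for replicates 2 and 3. In siLAPTM4B cells the correlations were 0.32, 0.13 and -0.17, against at most 0.2, 0.41 and 0.41 with another number. Reported comparisons were fitted without a replicate block. Alternatives were another prior variance, a replicate block, other feature sets, scaling and tests, and leaving out each array.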

Additional observations from a re-analysis of the deposited data

Results flagged for a closer look

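*PFKFB4* had estimates of opposite sign after knockdown in the 2 media, with no overlap of arrays in either. Its change was 0.12 (95% interval -0.012 to 0.24, adjusted p = 0.39) without serum and -0.25 (SE 0.047, adjusted p = 0.027) with 10% FBS, and the difference of 0.3623 did not pass the test (adjusted p = 0.0611). The same difference stands between its serum effects, which were 0.19 in siLAPTM4B cells and -0.17 in siControl cells and again opposite with no overlap. *PFKFB3* showed the same pattern after knockdown, with 0.11 (95% interval -0.0093 to 0.22, adjusted p = 0.38) without serum and -0.12 (95% interval -0.22 to -0.02, adjusted p = 0.19) with 10% FBS, and its difference of 0.2279 did not pass either (adjusted p = 0.189).

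The knockdown effect differed between the media by a passing test for 2 named genes. *LAPTM4B* had a difference of 0.3321 (adjusted p = 0.0345). *TFRC* had a difference of 0.3141 (adjusted p = 0.0274), with 0.28 without serum and -0.036 with 10% FBS.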

How the results depend on the processing

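Counts on serum withdrawal stayed within 1.5 times the reported ones under all alternatives, at 17 to 22 of 38 in siLAPTM4B cells (reported 18) and 13 to 24 in siControl cells (reported 19), and no called gene changed direction in any comparison. With dim features left out only 36 of the 38 were tested, *DDIT4* not among them. Leaving out each array in turn gave 17 to 18 in siLAPTM4B cells and 13 to 19 in siControl cells. With the replicate block they were 18 and 21, with *PGM1* and *BNIP3L* added in siControl cells. Knockdown without serum (reported 3) gave 7 with a prior variance that follows intensity and is robust to outliers, and 6 at limma's unadjusted p under 0.01. It gave 0 over all features, 0 by the pooled-variance t-test after Benjamini-Hochberg, 4 with the replicate block, and 0 to 1 without single arrays. Knockdown with 10% FBS (reported 7) gave 11 with the trend and 11 at limma's unadjusted p under 0.01 (5 higher and 6 lower in both). The pooled-variance t-test gave 12 at an unadjusted p under 0.01 and 2 after Benjamini-Hochberg (*EGLN3* among those lost). There were 2 over all features, 5 with the replicate block, which lost *EPAS1* and *ADM*, and 2 to 4 without single arrays. The difference between media (reported 0) gave 1, *PFKFB4*, with the trend or with dim features left out, 6 at limma's unadjusted p under 0.01, and 0 with the replicate block and without any 1 array. Testing all 33252 features adjusts over more of them and also estimates the prior variance from them, and these were not separated. The cause of the shifts was not tested. No reported fit took replicate numbers as pairs. For knockdown, same-numbered arrays correlated at 0.39, 0.069 and 0.18 without serum and at 0.37, 0.15 and -0.079 with 10% FBS.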

Other observations

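*AK4* and *TPI1* have 2 features each. Those of *AK4* had opposite signs on serum withdrawal in siControl cells, -0.29 (adjusted p = 0.156) for the brighter one, used above, and 0.12 (adjusted p = 0.0812) for the dimmer one. Neither feature of *AK4* or *TPI1* was called in any comparison. Outside the named genes, and chosen after their values were seen, *GAPDH* changed by 0.0065 (95% interval -0.10 to 0.11, adjusted p = 0.953) on serum withdrawal in siLAPTM4B cells and 0.0001 (95% interval -0.086 to 0.087, adjusted p = 0.999) in siControl cells, and *PGK1*, the enzyme after it and a common hypoxia marker, by 0.13 (95% interval 0.023 to 0.23, adjusted p = 0.0876) and 0.12 (95% interval 0.0063 to 0.23, adjusted p = 0.118).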
